A study of Rattus norvegicus with 6 samples.

Results

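The DEAD box and DEAH box helicases are enzymes that use ATP to unwind short RNA helices or to strip proteins from RNA, and they are named for the amino acids of a conserved ATP-binding motif. DEAD box proteins usually open a duplex locally, whereas DEAH box proteins move along a strand. Between them they drive spliceosome rearrangements, ribosome assembly, nuclear export, translation and decay of mRNA. The transcripts that encode them were followed here in RNA pulled down from the rat pituitary cell line GH4C1, whose lineage makes growth hormone and prolactin. Members were every row of the count table whose gene name begins with Ddx or Dhx and a digit, which gave 52 of 32883 rows, 36 named Ddx and 16 named Dhx. The names include a few relatives that are not RNA helicases of the DEAD or DEAH type in a strict sense, such as the DNA helicase Ddx11 and the RNA sensors Ddx58 and Dhx58.

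The study sought RNAs in direct contact with Neat1, the long noncoding RNA that organises nuclear paraspeckles. All 6 libraries came from wild-type GH4C1 cells treated with psoralen, which links base-paired strands covalently. Oligo pool A (3 libraries) or oligo pool B (3 libraries) was then used to capture RNA, and the labels give neither the oligo sequences nor whether a pool served as a control. They also do not state whether the 3 libraries of a pool came from separate cultures, so p-values measure the spread between these libraries, which may be technical. The values below are amounts of a transcript in pulled-down RNA, not expression levels. They also cannot tell apart more cells holding a transcript and more of it per cell. Neither input RNA nor uncrosslinked controls were analysed here.

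Total counts were between 1826390 and 3685899 per library, so that a count of 0 allows up to 3 counts, or 0.814 to 1.64 CPM (counts per 1000000 of the library total, not corrected for gene length), counting error only. Of the markers of the line, Prl, Gh1, Pou1f1 and Chgb were counted in all libraries and Ghrhr was listed at 0. The summed marker level was 4503 to 5244 CPM with pool A and 28336 to 35379 CPM with pool B, mostly through Chgb (log2 fold change -2.94, edgeR adjusted p 4.88e-14). Prl went the other way (0.83, edgeR adjusted p 1.26e-05), and Gh1 and Pou1f1 did not pass (edgeR adjusted p 0.331 and 0.245). Lists of 5 blood, 4 fibroblast and 2 endothelial rows summed to at most 25.7, 24.5 and 0.814 CPM in any library, with Hbb, Col3a1 and Kdr at 0 throughout. Markers of other pituitary lineages summed to 14.6 to 26.0 CPM with pool A and 51.5 to 55.6 CPM with pool B, mainly Lhb, while Tshb and Fshb were at 0. The part of these markers in the helicase results was not tested.

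Of the 52 members, 46 had enough counts to be tested, and 29 of these (63.0%) passed edgeR's quasi-likelihood test of pool A against pool B (Benjamini-Hochberg adjusted p under 0.05 over all tested genes). Over all tested genes the percentage was 40.6%. The 29 were 19 members higher with pool A (41.3% of the tested members, against 18.6% of all tested genes) and 10 higher with pool B (21.7%, against 22.0%). For 34 members (73.9%, against 49.1% of all tested genes) the CPM values of the pools had no overlap, every library of a pool lying above every library of the other. Members were well counted: 44 reached 10 counts in every library, and in a fit limited to such genes 65.9% of them passed, against 46.1% of all genes in that fit. The median log2 fold change, pool A over pool B, was 0.31 over the 46 members and 0.02 over all tested genes. It depended on the scaling, at 0.17 under total-count scaling and 0.42 under upper-quartile scaling, which moved the median of all genes by -0.14 and 0.10. Single libraries also moved it, to 0.21 without pool B replicate 2. Calls over 2-fold were made for 12 members (26.1%, against 25.4% of all tested genes), near the background. They were 7 with pool A higher (15.2%, against 11.1%) and 5 with pool B higher (10.9%, against 14.2%). Calls over 4-fold were made for 5 members (10.9%, against 7.82%), 4 with pool A higher (8.70%, against 3.43%) and 1 with pool B higher (2.17%, against 4.39%).

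**Figure D1:**
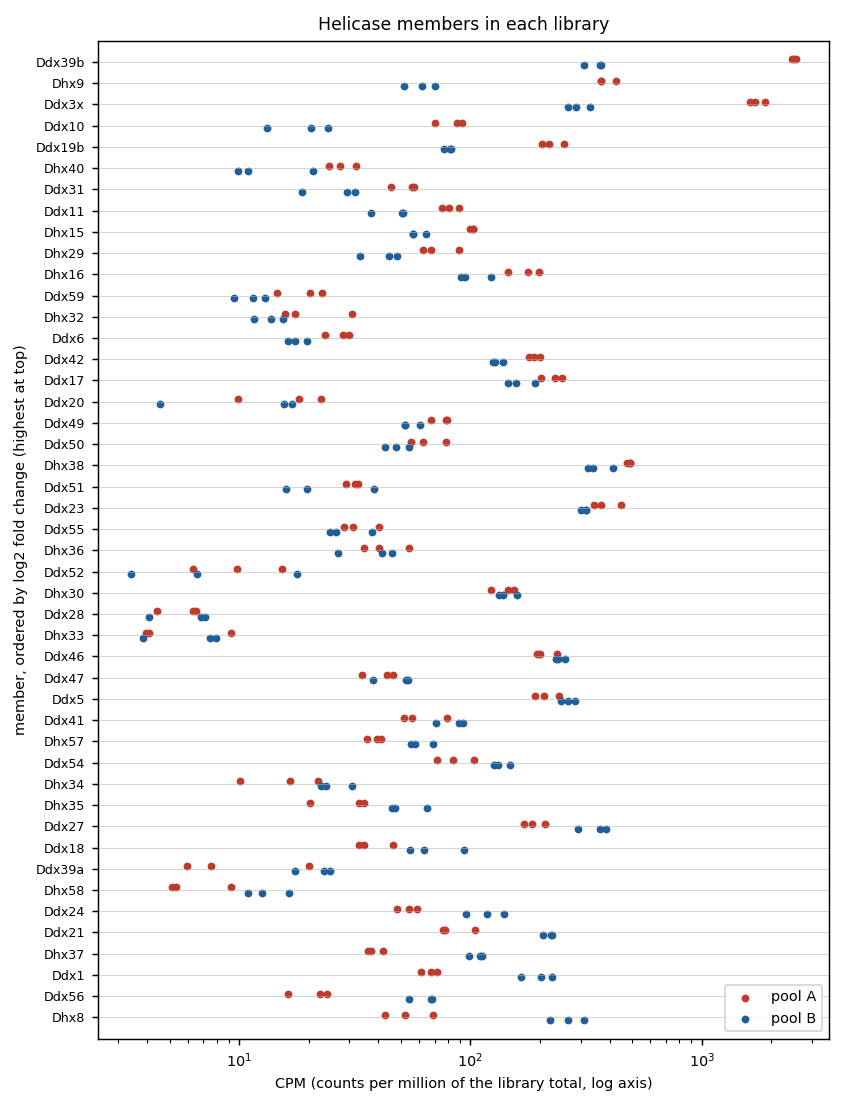
CPM of the 46 tested members in each of the 6 libraries (log axis), ordered by log2 fold change, with pool A in red and pool B in blue; each point is a library. Ddx39b, Dhx9 and Ddx3x stand apart at the top with pool A well to the right, and Dhx8 lies at the bottom with pool B to the right.

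The members linked to mRNA export held the largest difference. Ddx39b (ENSRNOG00000000841) encodes the helicase of the TREX complex, which couples splicing to export. It had 2471, 2564 and 2497 CPM in the pool A libraries and 363, 368 and 311 CPM in the pool B libraries. The pools were far apart and the pool A libraries nearly level (log2 fold change 3.002 ± 0.141 SE, n = 3 per pool, edgeR adjusted p 1.48e-15). RefSeq places Snord83 and another snoRNA gene over Ddx39b, and neither is in the count table by name. Ddx19b, which acts at the cytoplasmic face of the nuclear pore to release export factors, had 203, 253 and 219 CPM with pool A and 81.8, 82.7 and 76.8 CPM with pool B. Here too every pool A library exceeded every pool B library (log2 fold change 1.63 ± 0.15 SE; edgeR adjusted p 1.30e-09). In the RefSeq list for the GRCr8 assembly Ddx19b overlaps Aars1, which went the other way (log2 fold change -1.65), and the strand setting of the counting is not stated. Its paralog Ddx19a was not analysed here, and reads could be shared between them.

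Ddx39a, a close relative of Ddx39b with an overlapping role in export, did not pass. It had 20.1, 5.93 and 7.53 CPM with pool A and 23.2, 17.5 and 24.6 CPM with pool B. The ranges overlapped through pool A replicate 1 (log2 fold change -0.79 ± 0.40 SE, 95% interval -1.61 to 0.03; edgeR adjusted p 0.119). Without that library the value was -1.56 and passed (edgeR adjusted p 0.0059). All alternatives for Ddx39a together gave 0.0059 to 0.406.

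Among members that act in translation and mRNA decay, Ddx3x was the outstanding case. Ddx3x (ENSRNOG00000023383) encodes an X-linked helicase that helps mRNAs with structured leaders to be translated. It had 1622, 1873 and 1709 CPM with pool A and 263, 285 and 328 CPM with pool B. All pool A libraries lay far above all pool B libraries (log2 fold change 2.72 ± 0.14 SE; edgeR adjusted p 1.57e-14). Its Y-linked relative Ddx3y and the related row Ddx3 were listed at 0 in every library. RefSeq lists 1 Ddx3x pseudogene, which may share reads with Ddx3x. Of the 5 tested members of this group 3 were higher with pool A (against 18.6% of all tested genes) and none with pool B (against 22.0%), too few to read against those shares. The others past the threshold were Dhx29, a helper of the scanning ribosome (log2 fold change 0.94 ± 0.20, edgeR adjusted p 0.000449), and Ddx6, a translational repressor of P-bodies (0.76 ± 0.28, edgeR adjusted p 0.0346). The call on Ddx6 was lost when pool A replicate 2 or 3 or pool B replicate 1 or 3 was left out (edgeR adjusted p 0.0965, 0.0762, 0.0686 and 0.095), without a filter (0.0586) and under total-count scaling (0.0949). Dhx34, which takes part in nonsense-mediated decay, had a log2 fold change of -0.53 ± 0.32 and an edgeR adjusted p of 0.201.

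Dhx36, which unwinds G-quadruplexes, had 40.2, 54.2 and 34.8 CPM with pool A and 46.0, 26.8 and 41.6 CPM with pool B. The libraries of the pools were interleaved, and the log2 fold change of 0.31 ± 0.25 (SE) did not pass (edgeR adjusted p 0.358, 95% interval -0.21 to 0.82). The value moved to 0.10 when pool A replicate 2 was left out and to 0.11 when pool B replicate 2 was. It was 0.49 when pool A replicate 3 was left out and 0.46 when pool B replicate 1 was, and none of these passed.

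The group with roles in transcription and several RNA processing steps moved in both directions. Dhx9 (ENSRNOG00000002735), also known as RNA helicase A, resolves RNA duplexes and RNA-DNA hybrids in the nucleus. It had 367, 367 and 428 CPM with pool A and 51.8, 70.6 and 61.7 CPM with pool B. The pools did not overlap (log2 fold change 2.81 ± 0.15 SE; edgeR adjusted p 1.96e-14). Ddx1, part of the complex that joins tRNA exons after splicing, went the opposite way, with 61.3, 67.2 and 71.5 CPM with pool A and 202, 166 and 224 CPM with pool B. Every pool B library exceeded every pool A library (log2 fold change -1.43 ± 0.16 SE; edgeR adjusted p 3.24e-08).

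Ddx5 and Ddx17 are paralogs that act together as coregulators of transcription and in microRNA processing. Ddx17 had 232, 203 and 249 CPM with pool A and 191, 158 and 146 CPM with pool B (log2 fold change 0.61 ± 0.14 SE; edgeR adjusted p 0.00103). Its pool A libraries were all higher, by a modest margin. Ddx5 had 209, 241 and 190 CPM with pool A and 247, 283 and 263 CPM with pool B. The CPM ranges just failed to overlap, with pool B higher, but after TMM scaling the log2 fold change of -0.16 ± 0.14 (SE) did not pass (edgeR adjusted p 0.418, 95% interval -0.45 to 0.14). It was -0.02 without pool A replicate 3, -0.26 without pool A replicate 2, -0.30 under total-count scaling and -0.05 under upper-quartile scaling, and none of these passed. RefSeq lists 3 Ddx5 pseudogenes, and how reads were divided among such copies is not stated.

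Of the 10 members of the splicing group, 5 were higher with pool A (50%, against 18.6% of all tested genes). With pool B 2 were higher (20%, against 22.0%, near the background), and 3 did not pass. The group is too small to read against those shares. The exception in size was Dhx8 (ENSRNOG00000020772), the PRP22 homologue that releases spliced mRNA from the spliceosome. It had 52.4, 42.7 and 69.0 CPM with pool A and 222, 265 and 309 CPM with pool B. No library of pool A came near any of pool B. This difference was the largest of any tested member with pool B higher (log2 fold change -2.14 ± 0.17 (SE), edgeR adjusted p 4.42e-11).

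Dhx38, Dhx16 and Dhx15, DEAH box helicases of other spliceosomal steps, were higher with pool A. Dhx38, the PRP16 homologue of the second step, had 491, 474 and 489 CPM with pool A and 323, 339 and 412 CPM with pool B. Pool A was higher in every library (log2 fold change 0.58 ± 0.13 SE; edgeR adjusted p 0.000804). Dhx16 (PRP2), which activates the spliceosome, and Dhx15 (PRP43), which takes it apart, had log2 fold changes of 0.90 ± 0.16 (edgeR adjusted p 3.26e-05) and 0.94 ± 0.17 (edgeR adjusted p 6.10e-05). Dhx35, a spliceosome component, was higher with pool B (-0.72 ± 0.25, edgeR adjusted p 0.0206), a call that was lost without pool A replicate 1 or pool B replicate 3 (edgeR adjusted p 0.137 and 0.152).

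Among the DEAD box helicases of splicing, Ddx23, the PRP28 homologue that displaces U1 from the 5′ splice site, had 367, 343 and 447 CPM with pool A and 302, 318 and 318 CPM with pool B. The pools were close but did not overlap (log2 fold change 0.44 ± 0.13 SE; edgeR adjusted p 0.00629). Scaling by total counts alone took Ddx23 above the threshold (edgeR adjusted p 0.0855). So did the test against a 1.5-fold change (0.887), which asks a stricter question. Ddx23 passed under all its other alternatives, with a lowest adjusted p of 0.000505 in the DESeq2 test. Ddx42, which acts on the U2 particle, was higher with pool A (0.69 ± 0.14, edgeR adjusted p 0.000273). Ddx46, the PRP5 homologue, had a log2 fold change of -0.07 ± 0.13 with a 95% interval from -0.34 to 0.21. Ddx41 and Ddx20, a subunit of the SMN complex that assembles spliceosomal particles, did not pass (edgeR adjusted p 0.196 and 0.275).

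**Figure D2:**
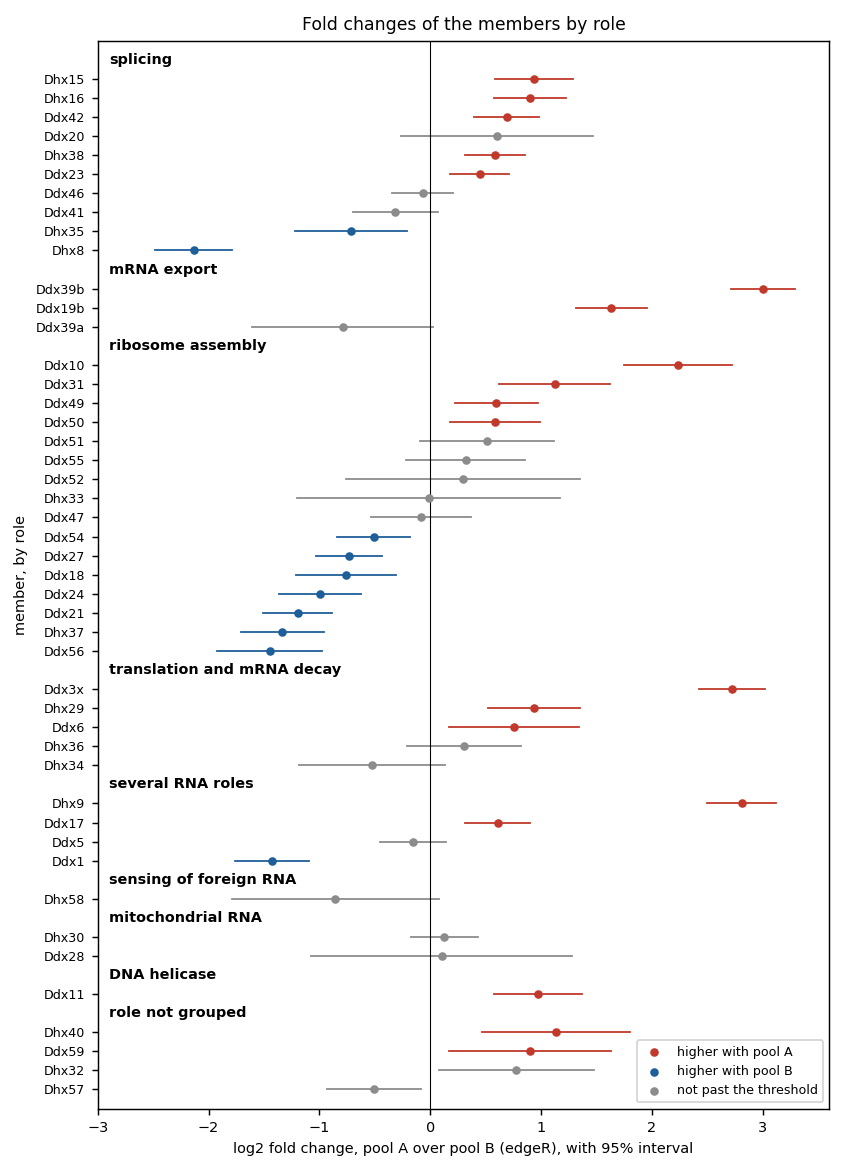
Log2 fold change of each tested member, pool A over pool B, with its 95% interval from the edgeR fit on 3 libraries per pool, grouped by role; red and blue mark members past the adjusted p threshold. The ribosome assembly group spreads to both sides of 0, from -1.45 for Ddx56 to 2.23 for Ddx10, and Dhx8 lies apart from the rest of the splicing group.

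The ribosome assembly group had 16 members, all tested. Of these, 7 were higher with pool B (43.8%, against 22.0% of all tested genes), 4 were higher with pool A (25.0%, against 18.6%) and 5 did not pass. No difference between role groups was tested. Their median log2 fold change was -0.05. On the pool B side, Ddx56, a nucleolar helicase of the large subunit, had 23.9, 16.2 and 22.3 CPM with pool A and 54.2, 67.3 and 68.1 CPM with pool B. Its pools were clearly separate (log2 fold change -1.45 ± 0.23 SE; edgeR adjusted p 1.01e-05). Dhx37, a helicase of small subunit assembly, had 36.1, 41.9 and 37.3 CPM with pool A and 112, 98.6 and 110 CPM with pool B. Both pools were tight (log2 fold change -1.33 ± 0.18 SE; edgeR adjusted p 1.04e-06).

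Ddx21, a nucleolar helicase that links ribosomal RNA transcription and processing, had 76.5, 77.5 and 105 CPM with pool A and 225, 205 and 222 CPM with pool B. Pool B was higher in all libraries (log2 fold change -1.20 ± 0.15, edgeR adjusted p 2.33e-07). RefSeq lists 9 Ddx21 pseudogenes, which may share reads with it. Ddx24 had 54.3, 48.2 and 58.7 CPM with pool A and 140, 95.3 and 118 CPM with pool B, again without overlap (-0.99 ± 0.18, edgeR adjusted p 5.29e-05). Ddx27, a helicase of large subunit assembly, had 170, 210 and 185 CPM with pool A and 291, 385 and 364 CPM with pool B. Every pool B library was above every pool A library, with a fitted fold of 1.66 (log2 fold change -0.73 ± 0.15, edgeR adjusted p 0.00017). Ddx18 had 33.1, 34.8 and 46.1 CPM with pool A and 63.1, 54.8 and 93.4 CPM with pool B (-0.76 ± 0.22, edgeR adjusted p 0.0068). Pool B replicate 3 carried much of the difference in Ddx18: without it the value was -0.49 and the call was lost (edgeR adjusted p 0.124). Ddx54 was the remaining member higher with pool B (-0.51 ± 0.16, edgeR adjusted p 0.0115), and its call was lost without pool A replicate 2 or pool B replicate 3 (edgeR adjusted p 0.088 and 0.0734).

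In favour of pool A, Ddx10 had 87.4, 91.8 and 70.6 CPM with pool A and 20.5, 13.1 and 24.2 CPM with pool B. It was the only ribosome assembly member over 4-fold different (log2 fold change 2.23 ± 0.24 SE; edgeR adjusted p 1.16e-08). Ddx31 had 57.0, 56.2 and 45.2 CPM with pool A and 31.7, 18.6 and 29.1 CPM with pool B. The pools did not overlap (1.12 ± 0.24, edgeR adjusted p 0.000471). Ddx49 was also higher with pool A (0.59 ± 0.18, edgeR adjusted p 0.0102), but not with total counts alone (0.0575), and it overlaps Homer3, which was higher with pool A too (log2 fold change 2.01). Ddx47, Ddx51, Ddx52, Ddx55 and Dhx33 did not pass, with edgeR adjusted p between 0.176 and 0.987. Of these, Ddx51 passed as higher with pool A when pool B replicate 2 was left out (log2 fold change 0.93, edgeR adjusted p 0.0166). It overlaps Noc4l in RefSeq, which was higher with pool B (log2 fold change -1.89, edgeR adjusted p 4.22e-07).

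Ddx50, the neighbour and paralog of Ddx21, went against it. It had 55.3, 62.1 and 78.7 CPM with pool A and 47.7, 54.2 and 42.8 CPM with pool B (log2 fold change 0.58 ± 0.20 SE; edgeR adjusted p 0.0188). The pools lay next to each other without overlap. The call was lost without pool A replicate 3 or pool B replicate 3 (edgeR adjusted p 0.0797 and 0.0882) and with total counts alone (0.089). It was also lost in the stricter test against a 1.5-fold change (0.527). The lowest edgeR adjusted p for Ddx50 was 0.00609, with upper-quartile factors.

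Outside these groups, Ddx11, a DNA helicase that acts in sister chromatid cohesion, had 75.7, 89.0 and 80.9 CPM with pool A and 51.1, 50.4 and 37.1 CPM with pool B. All pool A libraries were higher (log2 fold change 0.98 ± 0.19, edgeR adjusted p 0.000171). Dhx40 had 24.4, 27.3 and 32.0 CPM with pool A and 9.88, 10.95 and 20.8 CPM with pool B. Its pools did not overlap although the pool B libraries scattered (1.13 ± 0.32, edgeR adjusted p 0.0059). Ddx59 was just inside the threshold (0.90 ± 0.36, edgeR adjusted p 0.044) and lost its call under 9 of 15 alternatives, among them those without pool A replicate 2 or 3 or pool B replicate 2 or 3 (0.117, 0.119, 0.0724 and 0.129). Just outside the threshold were Dhx57 (-0.51 ± 0.21, edgeR adjusted p 0.051) and Dhx32 (0.78 ± 0.34, edgeR adjusted p 0.072). Dhx57 passed as higher with pool B without pool B replicate 2 (0.0496), with total counts alone (0.0148) and with limma-voom (0.0393). Dhx32 passed as higher with pool A without pool A replicate 1 (0.0469) and with upper-quartile factors (0.0402).

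The mitochondrial members showed no call. Dhx30, which serves the mitochondrial ribosome, had a log2 fold change of 0.13 ± 0.15 with a 95% interval from -0.18 to 0.43, and Ddx28 had 0.10 ± 0.57 with an interval from -1.08 to 1.28. Ddx28 had only 12 to 24 counts per library, and its interval includes 2-fold differences of either sign. Of the sensors of foreign RNA, Dhx58 had a log2 fold change of -0.86 ± 0.46 (edgeR adjusted p 0.143), and Ddx58 had 1 to 12 counts per library and was not tested. The germ line members were not tested either: Ddx25 had 3 to 9 counts per library, Ddx43 had 2 counts in pool A replicate 2 and none elsewhere, and Ddx4 was listed at 0.

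The members' share of each library was compared next. All 52 together had 8216, 8553 and 8737 CPM with pool A and 4674, 4784 and 4978 CPM with pool B, so that every pool A library exceeded every pool B library. The means were 8502 ± 264 and 4812 ± 154 CPM (SD, n = 3 each), and a two-sided exact permutation test over libraries gave p = 0.1, the smallest that 3 against 3 libraries allow. Ddx39b and Ddx3x had the most counts of any member with pool A. Their share of the members' counts was 49.9% ± 1.9 with pool A and 13.3% ± 0.4 with pool B (SD over 3 libraries). Leaving out this pair was chosen after seeing the data, for their high counts with pool A, so that a smaller gap follows from the choice. The other members summed to 4123, 4116 and 4530 CPM with pool A and 4047, 4130 and 4339 CPM with pool B, which overlapped. With TMM effective library sizes the sums without this pair did not overlap, at 4513 ± 83 and 4002 ± 180 CPM (SD, n = 3 each), a ratio of 1.13.

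**Figure D3:**
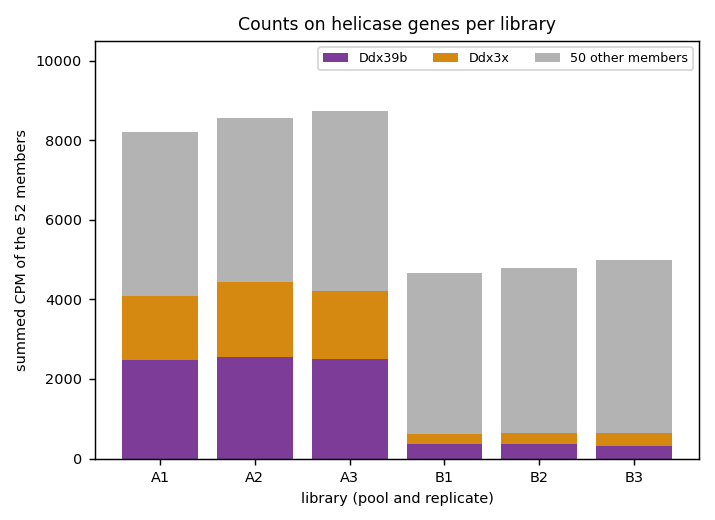
Summed CPM of the 52 members in each library, as bars from 0 split into Ddx39b, Ddx3x and the 50 other members; A and B give the pool and the digit the replicate. The grey part is similar in all 6 libraries (4047 to 4530 CPM), while the Ddx39b and Ddx3x parts are far larger with pool A.

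Since a ratio of counts within a library does not depend on the library's scaling, pairs of related members were also compared by the log2 of their count ratio. The pair Ddx21 and Ddx50 had log2 ratios of 0.47, 0.32 and 0.41 with pool A and 2.23, 1.92 and 2.37 with pool B. Their balance thus differed by -1.77 between the pools (pool A minus pool B). For Ddx5 over Ddx17 the log2 ratios were -0.15, 0.25 and -0.39 with pool A and 0.37, 0.84 and 0.85 with pool B, a difference of -0.79. For Ddx39a over Ddx39b they were -6.93, -8.71 and -8.34 with pool A and -3.96, -4.37 and -3.65 with pool B, a difference of -4.00. For Dhx9 over Dhx36, relatives with a like helicase core, they were 3.19, 2.76 and 3.61 with pool A and 0.17, 1.39 and 0.57 with pool B, a difference of 2.48. In all 4 pairs the pools did not overlap. Each pair holds at least 1 gene that had itself passed the threshold (Ddx21 and Ddx50, Ddx17, Ddx39b and Dhx9), so the separation of the ratios is not independent of those calls. CPM ranges did not overlap for 49.1% of all tested genes, and the share for ratios of other gene pairs was not computed. Each gave p = 0.1 in the two-sided exact permutation test, before and after Benjamini-Hochberg adjustment over the 4 pairs, which is the smallest possible. The pair Ddx3x and Ddx3y had no counts of Ddx3y to compare.

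**Figure D4:**
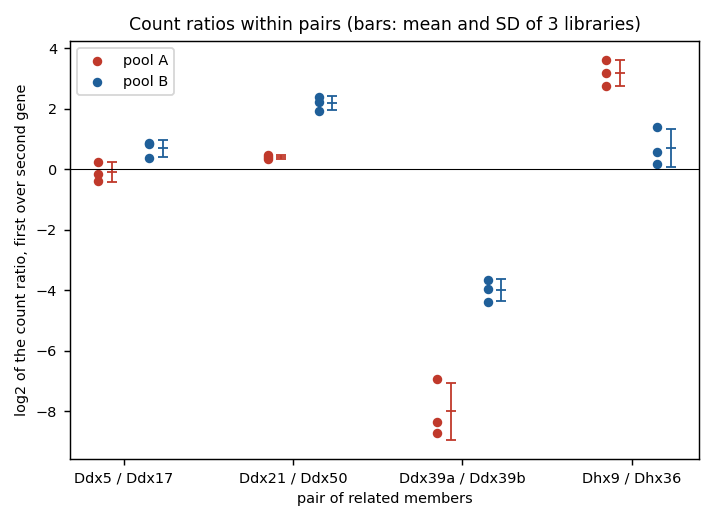
Log2 of the count ratio of the first over the second gene of 4 related pairs in each library, with pool A in red and pool B in blue; points are libraries, and bars give the mean and SD of 3 libraries. Within each pair the red and blue points form separate clusters, widest apart for Ddx39a over Ddx39b.

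Genes that work with these enzymes were taken from lists of names. Of related helicases that carry other names, 19 of 22 in the table were tested, 2 were higher with pool A, 7 were higher with pool B and 10 did not pass. The 10.5% higher with pool A stood beside 18.6% of all tested genes, and the 36.8% higher with pool B beside 22.0%. In either direction 47.4% passed, near the 40.6% of all tested genes. Under upper-quartile factors the shares with pool A and pool B were 21.1% and 31.6%, beside 2515 and 2251 of 11582 genes. The median log2 fold change of -0.30 rested on single libraries and the scaling, at -0.09 without pool A replicate 3, -0.14 without pool B replicate 3, -0.45 under total-count scaling and -0.20 under upper-quartile scaling. Those higher with pool B with the smallest adjusted p were Ascc3 (-1.86 ± 0.21, edgeR adjusted p 4.13e-08), Helz2 (-1.25 ± 0.20, edgeR adjusted p 9.47e-06) and Eif4a3, the DEAD box ATPase of the exon junction complex (-1.14 ± 0.18, edgeR adjusted p 1.24e-05). Skiv2l, the helicase of the cytoplasmic exosome pathway, and Helz were higher with pool A (1.03 ± 0.19 and 0.77 ± 0.16, edgeR adjusted p 5.49e-05 and 0.000338). Of 52 rows for helicase cofactors, 49 were tested, 14 were higher with pool A, 14 were higher with pool B and 21 did not pass, so that 57.1% passed, against 40.6% of all tested genes. That was 28.6% in each direction, against 18.6% of all tested genes with pool A and 22.0% with pool B. Their median log2 fold change was 0.0045. Under total-count and upper-quartile scaling, which moved the median of all genes by -0.14 and 0.10, it was -0.13 and 0.11. It was 0.11 when pool A replicate 1 was left out and 0.07 when pool B replicate 3 was. The sign turned when any other library was left out, to -0.03 for pool A replicate 2, -0.06 for pool A replicate 3, -0.01 for pool B replicate 1 and -0.04 for pool B replicate 2.

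Cofactors past the threshold went both ways. Of those with the smallest adjusted p, Gpatch8 and Gpatch3, which carry the G-patch domain found in activators of DEAH box helicases, were higher with pool A (2.90 ± 0.15 and 2.74 ± 0.23, edgeR adjusted p 6.44e-15 and 1.14e-10), and Gpatch2, with the same domain, was higher with pool B (-3.35 ± 0.17, edgeR adjusted p 8.84e-15). Gpkow, a G-patch protein of the spliceosome, was also higher with pool B (-1.50 ± 0.16, edgeR adjusted p 7.91e-09). The remaining G-patch genes of the list also split. Gpatch4, Rbm10 and Pinx1 were higher with pool A (log2 fold changes 1.53, 1.42 and 1.24; largest edgeR adjusted p 0.00904). Gpatch2l, Gpatch11, Tfip11, Rbm17, Zgpat and Cmtr1 were higher with pool B (log2 fold changes -1.27, -1.02, -0.90, -1.37, -1.38 and -0.45; largest edgeR adjusted p 0.0296). Gpatch1, Rbm5, Sugp1 and Sugp2 did not pass (edgeR adjusted p 0.110, 0.950, 0.123 and 0.399), and Nkrf was not tested. Thoc2, a TREX subunit that works with Ddx39b, was higher with pool A (1.77 ± 0.16, edgeR adjusted p 6.67e-10). Among the other TREX genes of the list, Sarnp was higher with pool A (1.67 ± 0.19, edgeR adjusted p 4.58e-08) and Thoc5 with pool B (-0.84 ± 0.20, edgeR adjusted p 0.00109), while Thoc1, Thoc3, Thoc6, Thoc7 and Alyref did not pass (edgeR adjusted p 0.314 to 0.987); these were named to complete the complex, after their values were seen. Eif4g1, the scaffold that activates the helicase Eif4a1 in translation, was higher with pool B (-2.34 ± 0.13, edgeR adjusted p 8.10e-14). Of the related scaffolds and Eif4a partners on the list, Eif4g2 and Eif4b were also higher with pool B (-1.06 ± 0.15 and -0.41 ± 0.13, edgeR adjusted p 2.40e-06 and 0.0111). Eif4g3, Eif4h and Pdcd4, an inhibitor of Eif4a, were higher with pool A (0.73 ± 0.14, 1.07 ± 0.13 and 0.65 ± 0.13, edgeR adjusted p 0.000166, 1.90e-07 and 0.000148). The G-patch and Eif4a genes beyond those with the smallest adjusted p were likewise named after their values were seen.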

How the data were processed

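The authors deposited a table of raw counts per gene for 6 libraries, with rat Ensembl gene IDs and names, made with STAR and featureCounts per the submitters' processing notes. Versions, genome build and strand setting are not given in the sources used here. The deposited mean counts per pool, in columns A and B, were not used. For the comparison of counts edgeR 4.0.16 was run under R 4.3.3, with TMM normalization, filterByExpr by pool, quasi-likelihood test on all 6 libraries with pool as the only term, and Benjamini-Hochberg adjustment over 11582 tested genes. Standard errors come from the fold change and F statistic. The procedure was tested on simulated data. Alternatives used DESeq2 1.42.0 and limma 3.58.1, other scalings and filters, and each library left out.

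Members, roles and lists were chosen with earlier results of these data known. Values per library are given for the 8 members per direction with the largest fold changes, among those past the threshold whose CPM ranges do not overlap and whose mean is at least 10 counts, the 5 members with most counts in each pool, and the members of related pairs. Cofactors are named by smallest adjusted p, up to 3 per direction. Markers and list names were matched by symbol or RefSeq synonym. RefSeq's GRCr8 list was used only for names, overlaps and pseudogenes. Libraries of a pool differed by more than counting noise (chi-square over its degrees of freedom 5.86 to 20.7), so none was taken as a duplicate.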

Additional observations from a re-analysis of the deposited data

How the results depend on the processing

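The numbers of members higher with pool A and pool B (19 and 10) stayed within 1.5 times under every other scaling, filter and tool run. They were 9 and 6 of 46 when tested against a 1.5-fold change, beside 1156 and 1521 of 11582 genes. In an alternative chosen after seeing the data they were 7 and 5 among calls over 2-fold. Both alternatives are stricter by construction. Leaving out a library gave 16 to 20 and 7 to 11. Over all genes the same fits gave 1856 to 2048 and 2194 to 2390. The median log2 fold change of the members was 0.17 with total counts only and 0.42 with upper-quartile factors. These scalings moved the median of all tested genes as well, by -0.14 and 0.10. The members' median was 0.38 with the replicate block and 0.40 when each gene needed 10 or more counts per library. It was 0.21 to 0.40 across the fits without a single library. For the block, the count filter and the left-out libraries the cause was not tested. With upper-quartile factors 4 of 19 related helicases (21.1%) were higher with pool A, beside 2515 of 11582 genes, near the background.

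Of the 29 members past the threshold, 15 kept direction and call under all 15 alternatives. The share over all genes was not computed. The alternatives include the test against a 1.5-fold change, which alone left 9 and 6 members past the threshold. For Ddx17, Ddx27, Dhx38 and Dhx40 that test was the only alternative under which the call was lost. Over 688 refits of tested members, 38 lost and 7 gained a call, and none changed sign with a call. With the replicate number as a block 18 and 10 members passed, beside 2085 and 2476 of 11582 genes. Ddx59 alone lost its call there (edgeR adjusted p 0.0657). Deviations of same-numbered libraries correlated at 0.0403, -0.0213 and 0.0175, which does not pair the libraries. Summed counts and pair ratios kept their direction under their alternatives.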
